A study of Mus musculus with 20 samples.

Results

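A set of 10 genes of hepatic stellate cells and liver fibrosis was followed in the livers of PCB-exposed mice on a high-fat diet (HFD). Their rows were found by gene symbol, through the GENCODE M21 annotation of GRCm38, in the table of raw counts, and all 10 of the 10 were present among its 21780 genes and among the 15522 genes tested. Col1a1, Col1a2 and Col3a1 encode the chains of fibrillar collagens I and III, and Col4a1 encodes a chain of collagen IV of basement membranes. Acta2 and Des encode the cytoskeletal proteins smooth muscle α-actin and desmin. Timp1 encodes an inhibitor of matrix metalloproteinases, Tgfb1 a profibrotic cytokine, Pdgfrb a receptor for PDGF, and Lrat the enzyme that esterifies retinol for storage.

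Hepatic stellate cells lie between hepatocytes and the sinusoidal endothelium, where they store vitamin A as retinyl esters. On liver injury they lose these stores and become contractile, collagen-producing myofibroblasts, a change driven by TGF-β and PDGF among other signals, and a rise of Col1a1, Acta2 and Timp1 with a fall of Lrat is the textbook pattern of this activation. Acta2 and Des are also made by vascular smooth muscle, Tgfb1 by macrophages and other cells, and Col4a1 by endothelial cells, so that none of these transcripts belongs to stellate cells alone. Levels were measured by RNA-seq of bulk liver, in which fewer cells of a type and less RNA per cell cannot be told apart.

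All 20 livers came from male C57Bl/6J mice that were fed the same diet, with 42% of its calories from fat, from 8 weeks of age for 12 weeks, and that received 1 oral gavage at 10 weeks of age. The HFD control mice received corn oil, the HFD + Aroclor mice 20 mg/kg of Aroclor 1260, a commercial mixture of mainly non-dioxin-like PCBs, the HFD + PCB 126 mice 20 µg/kg of PCB 126, a dioxin-like congener that activates the aryl hydrocarbon receptor (AhR), and the HFD + Aroclor + PCB 126 mice both doses together. Each group held 5 mice. No group on a control diet was included, so that the comparisons concern PCB exposure on a shared background of diet-fed liver, and the doses of Aroclor 1260 and PCB 126 differ in unit and size. The labels give 12 weeks of PCB treatment, and the methods 10 weeks after the gavage.

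The total count per library was 21836506 to 36854887, and values below are counts in each 1000000 (CPM), scaled by the trimmed mean of M values. Liver identity was plain in every library, with hepatocyte markers summing to 73285 CPM or more. Cyp1a2, an AhR target, spanned 249.2 to 517 CPM (HFD control), 279 to 492 CPM (HFD + Aroclor), 1120 to 2601 CPM (HFD + PCB 126) and 537 to 992 CPM (HFD + Aroclor + PCB 126). HFD control replicate 4 stood apart, since its 4 skeletal muscle markers (Ckm, Acta1, Mylpf and Tnnt3) summed to 41.8 CPM against 0.385 to 1.46 CPM in the 19 other libraries. HFD control replicate 5 had the highest level of the smooth muscle myosin gene Myh11, at 27.7 CPM. The slope of the count deviation on transcript GC content, in log2 units per 10 percentage points of GC, was 0.01 to 0.50 in HFD control and -0.67 to -0.13 in HFD + Aroclor + PCB 126, so that these groups did not overlap in it. The 10 genes in the combined exposure are therefore given also with a GC offset, in which the fit takes each library's smooth trend of counts on GC content as part of its scaling. The offset can also take out an effect of the exposure that follows GC content, and these cannot be told apart here.

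At the gene level the 10 genes spanned a wide range. Per kilobase of exon in HFD control, Acta2 was highest at 4.83 ± 6.45 CPM/kb (mean ± SD, n = 5), followed by Col4a1 at 4.45 ± 0.81, Col3a1 at 3.49 ± 1.65 and Lrat at 2.57 ± 0.83 CPM/kb, and Tgfb1 was lowest at 0.89 ± 0.16 CPM/kb. Each gene in this order overlapped the next in its range over mice. In HFD + Aroclor + PCB 126 the order began with Lrat at 4.66 ± 0.44, Col3a1 at 4.32 ± 1.68 and Col4a1 at 2.92 ± 0.75 CPM/kb, and ended with Des at 0.61 ± 0.16 CPM/kb, again with overlap between neighbours. Mice of 1 group differed more in these genes than in most genes of at least 1 CPM. The coefficient of variation within groups, averaged over the 4 groups, was 113% for Acta2, 67.9% for Timp1, 52.4% for Col1a1 and 42.8% for Col3a1, against a median of 15.6% over the 11342 genes of at least 1 CPM. It was lowest for Col4a1, at 18.3%, and Tgfb1, at 19.04%. Timp1, at a mean of 0.83 CPM, lies below that level. The 10 genes were not set against genes of similar level, and the part of low counts in this spread was not tested. Timp1 rested on 4 to 54 counts per library, and each other gene on at least 39.

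**Figure D1:**
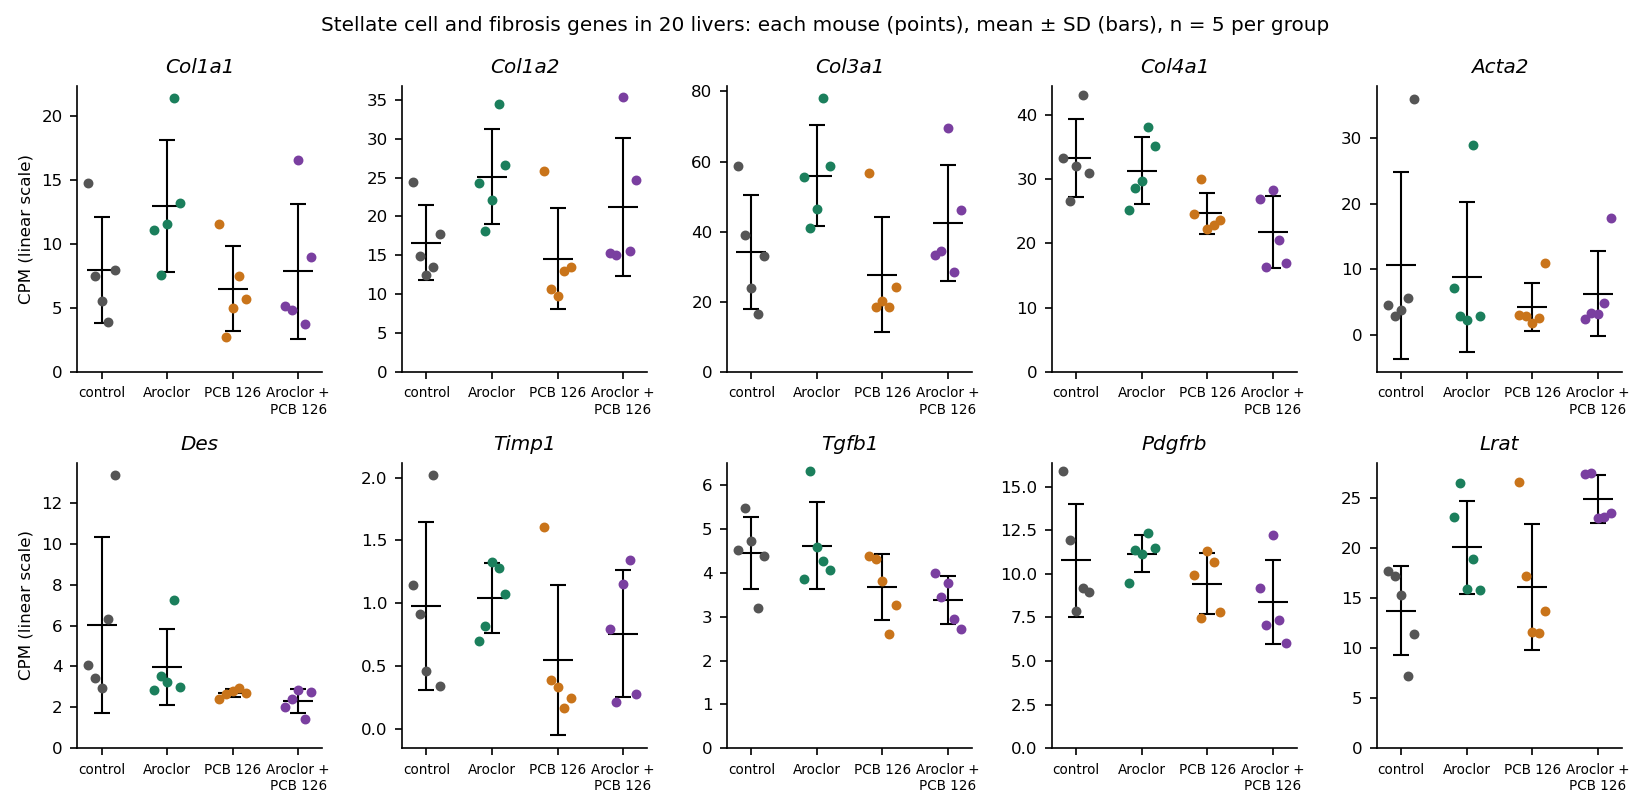
Levels of the 10 genes in the liver of each mouse, in CPM on a linear axis, by exposure group, with the mean and SD of 5 mice as bars. Lrat of all 5 HFD + Aroclor + PCB 126 mice (23.0 to 27.6 CPM) lay above HFD control (7.19 to 17.7 CPM), a separation seen in 1 direction or the other for 18.8% of all genes. In each group 1 mouse had the high Acta2 level (10.9 to 35.9 CPM).

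Against HFD control, 3 of the 10 genes changed in HFD + Aroclor + PCB 126, with Lrat higher and Des and Col4a1 lower. None of the 10 changed in HFD + Aroclor or in HFD + PCB 126. In the combined exposure 32.8% of all genes tested passed the threshold (edgeR quasi-likelihood test, Benjamini-Hochberg adjusted p under 0.05), 15.8% higher and 17% lower, so that 3 of 10 is near the share of all genes. With the GC offset 9.08% of all genes passed and none of the 10 did, with 1 at an unadjusted p under 0.05 and a smallest adjusted p of 0.064, for Des. The median log2 fold change of the 10 genes was -0.36 without the offset and 0.02 with it, against 0.00 and -0.02 for all genes.

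In HFD + Aroclor, 7 of the 10 log2 fold changes were above 0 and their median was 0.07, against -0.01 for all genes. The edgeR test called 0 of the 10 there and 0% of all genes, while 3 of the 10 and 2677 of all genes had an unadjusted p under 0.05, and DESeq2 called 0 of the 10 and 135 genes. In HFD + PCB 126, 9 of the 10 log2 fold changes were below 0 and their median was -0.30, against -0.02 for all genes. There edgeR called 0 of the 10 and 0.116% of all genes (18 genes), while 2 of the 10 and 2280 of all genes had an unadjusted p under 0.05, and DESeq2 called 1 of the 10, Des, and 320 genes. These 3 comparisons share the same 5 control mice, so that their values are not independent of each other.

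**Figure D2:**
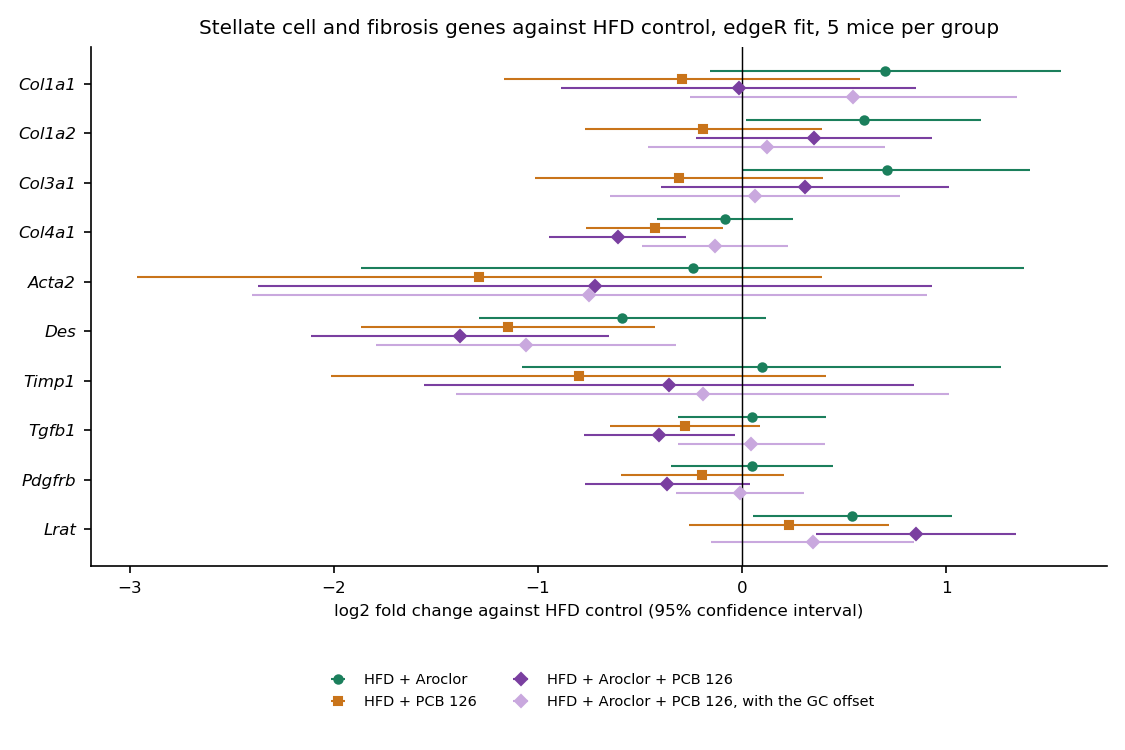
Log2 fold change against HFD control with its 95% confidence interval for the 10 genes, in HFD + Aroclor (circles), HFD + PCB 126 (squares) and HFD + Aroclor + PCB 126 (diamonds), from the edgeR fit with 5 mice per group. The pale diamonds give the combined exposure with the GC offset, where Lrat moved from 0.85 to 0.35, Col4a1 from -0.61 to -0.13 and Des from -1.38 to -1.06.

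Lrat marks the retinoid-storing stellate cell. It was at 17.7, 17.2, 15.3, 7.19 and 11.4 CPM in the 5 HFD control mice. It was at 27.5, 27.6, 23.0, 23.1 and 23.6 CPM in the HFD + Aroclor + PCB 126 mice. Every mouse of the combined exposure was therefore above every control mouse, a separation seen in 1 direction or the other for 18.8% of all genes. The mean rose from 13.8 ± 4.43 to 24.9 ± 2.36 CPM, a log2 fold change of 0.85 ± 0.24 (SE) with an adjusted p of 0.0093. HFD + Aroclor mice were at 23.1, 26.5, 15.98, 18.9 and 15.9 CPM, and HFD + PCB 126 mice at 26.6, 17.3, 11.6, 11.6 and 13.7 CPM. These single exposures overlapped the controls, with log2 fold changes of 0.54 (95% CI 0.05 to 1.03, adjusted p = 0.258) and 0.23 (-0.26 to 0.72, adjusted p = 0.691). The log2 fold change of Lrat in the combined exposure was 0.35 with the GC offset (-0.15 to 0.84, adjusted p = 0.403). The Lrat transcript has the lowest GC content of the 10 genes, 42.0%. Without HFD control replicates 4 and 5, which had its lowest levels, the value was 0.57 and the adjusted p 0.055.

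Des, the intermediate filament of stellate and smooth muscle cells, went the other way. Its levels were 4.08, 3.42, 2.94, 6.32 and 13.4 CPM in HFD control, and 2.02, 2.43, 2.83, 1.42 and 2.76 CPM in HFD + Aroclor + PCB 126. All 5 mice of the combined exposure were below all controls, the highest at 2.83 CPM and the lowest control at 2.94 CPM. Of all genes, 18.8% separated these groups in 1 direction or the other. The mean fell from 6.02 ± 4.31 to 2.29 ± 0.59 CPM, with a log2 fold change of -1.38 ± 0.35 (SE, adjusted p = 0.0057). In HFD + PCB 126 the 5 mice were at 2.42, 2.64, 2.81, 2.95 and 2.71 CPM, with an SD of 0.20 CPM, and the log2 fold change of -1.15 (95% CI -1.87 to -0.43) had an adjusted p of 0.152. In HFD + Aroclor the levels were 2.83, 3.56, 3.24, 7.27 and 3.01 CPM, and the log2 fold change was -0.59 (-1.29 to 0.12, adjusted p = 0.363). The size of these differences rested largely on the control mice with the highest levels, replicates 4 and 5. Without replicate 5 the combined exposure gave -0.86 (adjusted p = 0.023), and without both -0.60 (adjusted p = 0.088). Replicate 5 was also the library highest in smooth muscle transcripts and replicate 4 the one with skeletal muscle transcripts. Both kinds of muscle make desmin, and their part in the difference was not tested beyond leaving these libraries out.

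Col4a1, the basement membrane collagen, was at 33.3, 26.6, 32.0, 43.1 and 31.0 CPM in HFD control. It was at 26.8, 16.4, 28.3, 20.5 and 16.9 CPM in HFD + Aroclor + PCB 126, where 2 of the 5 mice were above the lowest control. The log2 fold change was -0.61 ± 0.16 (SE, adjusted p = 0.0072), and it was -0.49 (adjusted p = 0.033) without HFD control replicates 4 and 5. With the GC offset it was -0.13 (95% CI -0.49 to 0.23, adjusted p = 0.708), and the GC content of the transcript, 56.9%, is the second highest of the 10. In HFD + PCB 126 the levels were 24.5, 30.1, 22.2, 22.8 and 23.6 CPM, with 4 of 5 mice below all controls, a log2 fold change of -0.43 (-0.76 to -0.09) and an adjusted p of 0.237. HFD + Aroclor mice, at 25.1 to 38.02 CPM, covered most of the range of the controls (-0.08, -0.42 to 0.25). Col4a1 overlaps Col4a2, its neighbour on the opposite strand, and whether the reads were counted by strand is not given in the sources used here. The 3 changed genes each passed the threshold in all 10 fits that left out 1 mouse of the 2 groups.

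The promoters of these 3 genes are shown because PCB 126 acts through the AhR, whose binding element has the core GCGTG. They are taken from RefSeq (GRCm38.p6), as the 300 bases that span the annotated start of transcription, with the core, as GCGTG or its reverse complement CACGC, in capitals. The genes themselves lie at chr3:82892579-82903973 (Lrat, ENSMUSG00000028003), chr8:11198423-11312826 (Col4a1, ENSMUSG00000031502) and chr1:75360329-75368579 (Des, ENSMUSG00000026208) of GRCm38, all 3 protein-coding. The promoter windows lie at chr3:82903925-82904224, minus strand (Lrat), chr8:11312777-11313076, minus strand (Col4a1) and chr1:75360042-75360341, plus strand (Des).
Lrat: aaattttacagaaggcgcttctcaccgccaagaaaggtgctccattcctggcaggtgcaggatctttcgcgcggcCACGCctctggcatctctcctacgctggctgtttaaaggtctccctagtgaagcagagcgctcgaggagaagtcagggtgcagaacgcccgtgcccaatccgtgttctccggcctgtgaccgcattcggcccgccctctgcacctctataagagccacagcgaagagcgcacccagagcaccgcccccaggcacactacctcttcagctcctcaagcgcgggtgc
Col4a1: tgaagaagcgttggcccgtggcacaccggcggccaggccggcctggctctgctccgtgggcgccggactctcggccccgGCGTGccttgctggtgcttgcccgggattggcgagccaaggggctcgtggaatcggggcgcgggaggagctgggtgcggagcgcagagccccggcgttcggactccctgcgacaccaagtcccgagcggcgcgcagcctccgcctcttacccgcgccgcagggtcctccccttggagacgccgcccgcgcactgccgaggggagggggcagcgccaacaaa
Des: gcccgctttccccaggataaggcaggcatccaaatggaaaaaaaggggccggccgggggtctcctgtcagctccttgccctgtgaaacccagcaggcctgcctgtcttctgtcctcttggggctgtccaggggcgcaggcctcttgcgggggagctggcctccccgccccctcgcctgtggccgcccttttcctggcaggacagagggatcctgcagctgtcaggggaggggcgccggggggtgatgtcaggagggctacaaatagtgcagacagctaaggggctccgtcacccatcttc
Lrat and Col4a1, which differ in direction, each had 1 core, at positions -175 and -171 from the start, and Des had none. Of the 8 of these genes that matched the RefSeq promoters, 4 held a core (Col4a1, Timp1, Tgfb1 and Lrat), against 32.4% of all 32851 promoters of the same length. A GC box (GGGCGG, either strand) was in 6 of the 8 and in 35.7% of all promoters, a CCAAT box (CCAAT, either strand) in 4 of the 8 and in 37.4%, and a TATA box (TATAAA, either strand) in 1 of the 8, that of Col3a1, and in 13.6%. The strict form of the CArG box was in none of the 8 and in 1.63% of all promoters. GC content ranged from 37.7% in the Col3a1 promoter to 77.0% in that of Tgfb1, and was 60.7% for Lrat, 74.0% for Col4a1 and 65.3% for Des. These matches describe the letters of the windows and not binding.

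The fibrillar collagens did not pass the threshold in any comparison. Col3a1, the most abundant of them in CPM, was at 58.7, 39.1, 24.0, 16.4 and 33.0 CPM in HFD control. It was at 55.7, 41.01, 46.5, 78.2 and 58.7 CPM in HFD + Aroclor, where all 5 mice were above 4 of the 5 controls. The log2 fold change was 0.71 (95% CI 0.00 to 1.41), with an adjusted p of 0.288. HFD + PCB 126 mice were at 56.8, 18.5, 20.3, 18.5 and 24.3 CPM, so that replicate 1 stood far above the other 4 mice of its group. In the combined exposure the levels were 33.3, 34.5, 69.6, 28.6 and 46.2 CPM, within the range of the controls except for 1 mouse, and the log2 fold change was 0.31 (-0.40 to 1.01), or 0.06 (-0.65 to 0.77) with the GC offset.

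Col1a1 and Col1a2 encode the α1 and α2 chains of collagen I. For Col1a1 the median was 7.53 CPM among controls (3.90 to 14.8), 11.6 CPM after Aroclor (7.56 to 21.4), 5.73 CPM after PCB 126 (2.74 to 11.6) and 5.15 CPM after both (3.74 to 16.6). Its log2 fold changes were 0.70 (95% CI -0.16 to 1.56), -0.30 (-1.17 to 0.57) and -0.02 (-0.89 to 0.85) in these exposures. In the combined exposure the value of Col1a1 was 0.55 (-0.26 to 1.35, adjusted p = 0.415) with the GC offset, so that its sign and whether the interval reached past a 2-fold rise depended on that step. Its partner Col1a2 had medians of 14.9, 24.2, 13.03 and 15.6 CPM, the groups being ordered as for Col1a1, with log2 fold changes of 0.59 (0.02 to 1.17, adjusted p = 0.278), -0.19 (-0.77 to 0.39) and 0.35 (-0.23 to 0.93), the last being 0.12 (-0.46 to 0.70) with the GC offset. The highest mouse of each group was the same for all 3 fibrillar collagens, HFD control replicate 1, HFD + Aroclor replicate 4, HFD + PCB 126 replicate 1 and HFD + Aroclor + PCB 126 replicate 3.

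Acta2, the usual marker of stellate cell activation, was dominated by single mice. Its levels were 4.62, 2.97, 3.81, 5.75 and 35.9 CPM in HFD control and 7.15, 2.92, 2.31, 29.0 and 3.01 CPM in HFD + Aroclor. They were 3.10, 2.90, 1.95, 2.70 and 10.9 CPM in HFD + PCB 126 and 2.42, 3.36, 3.25, 4.87 and 17.8 CPM in HFD + Aroclor + PCB 126. The medians of the 4 groups, 4.62, 3.01, 2.90 and 3.36 CPM, differed by less than the gap between the highest mouse and the next in any group. The log2 fold changes of -0.24 (95% CI -1.87 to 1.38), -1.29 (-2.97 to 0.39) and -0.72 (-2.37 to 0.93) were therefore poorly determined, and without HFD control replicate 5 they became 1.06, 0.01 and 0.58. The combined value was -0.75 (-2.40 to 0.91) with the GC offset.

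The 4 mice with the highest Acta2 were also the 4 with the highest Myh11. Over the 20 mice, after each group's mean was subtracted, the genes most like Acta2 were Myh11 (r = 0.98), Tagln (r = 0.96) and Myl9 (r = 0.93), which encode smooth muscle myosin, transgelin and a myosin light chain. Myh11 reached 27.7 CPM in HFD control replicate 5, 18.4 CPM in HFD + Aroclor replicate 4, 9.57 CPM in HFD + PCB 126 replicate 5 and 18.6 CPM in HFD + Aroclor + PCB 126 replicate 5, and was 1.04 to 5.19 CPM in the 16 others. Des was most like Smtn (r = 0.80), Flna (r = 0.78) and Ppp1r12b (r = 0.77), also genes of contractile cells. It was high with Acta2 in HFD control replicate 5 and HFD + Aroclor replicate 4 but not in the high-Acta2 mice of the 2 groups given PCB 126, where it was 2.71 and 2.76 CPM. Whether these levels came from vessel walls or from stellate cells was not tested.

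**Figure D3:**
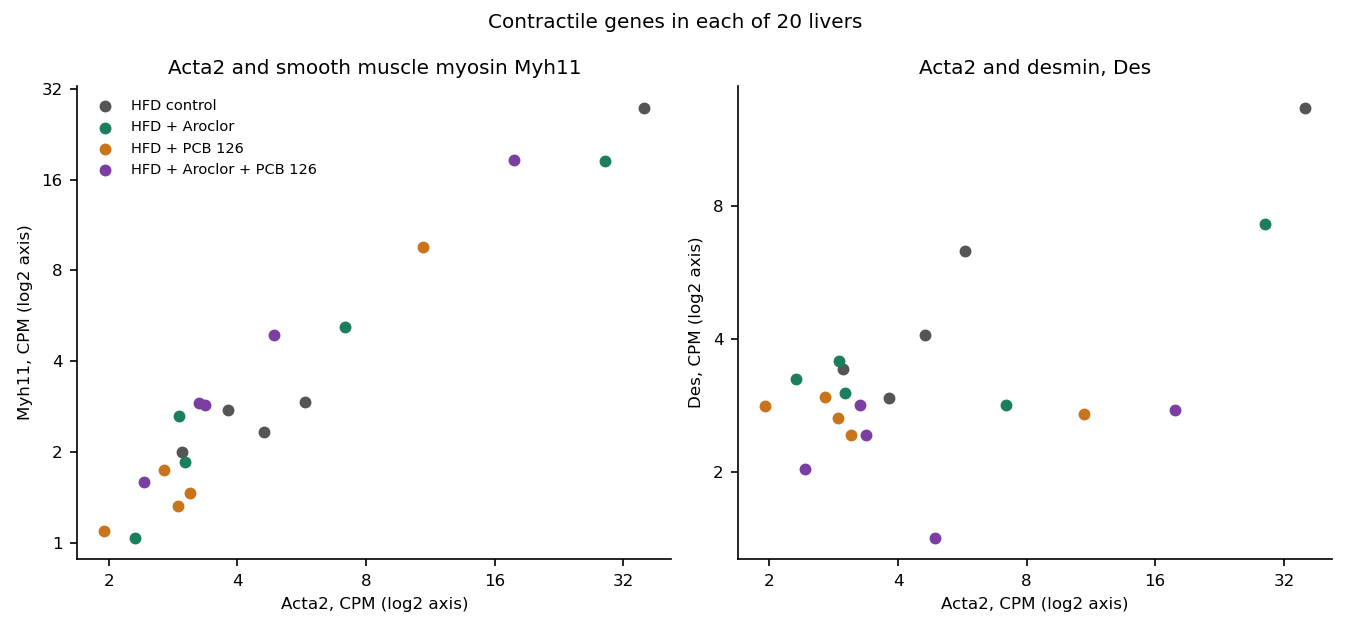
Myh11 (left) and Des (right) against Acta2 in each of the 20 livers, in CPM on log2 axes, coloured by group. Myh11 followed Acta2 through all groups, and Des was highest in HFD control replicate 5 (13.4 CPM) but stayed at 2.71 and 2.76 CPM in the mice with the highest Acta2 of HFD + PCB 126 and HFD + Aroclor + PCB 126.

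Of the signalling genes, Tgfb1 varied little. Its range was 3.20 to 5.48 CPM among controls, 3.86 to 6.33 CPM after Aroclor, 2.61 to 4.38 CPM after PCB 126 and 2.73 to 4.00 CPM after both. The log2 fold change of the combined exposure, -0.41 (95% CI -0.77 to -0.04), had an adjusted p of 0.086, and it was 0.05 (-0.31 to 0.41) with the GC offset. Without HFD control replicate 4, which had the lowest level of its group, it was -0.50 with an adjusted p of 0.030. In HFD + Aroclor and HFD + PCB 126 it was 0.05 (-0.32 to 0.41) and -0.28 (-0.65 to 0.09).

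Pdgfrb, the receptor through which PDGF acts on stellate cells, was 7.86 to 15.9 CPM in HFD control and 9.48 to 12.3 CPM in HFD + Aroclor. It was 7.44 to 11.3 CPM in HFD + PCB 126 and 6.05 to 12.2 CPM in the combined exposure. Its log2 fold changes were 0.05 (95% CI -0.35 to 0.45), -0.20 (-0.60 to 0.20) and -0.37 (-0.77 to 0.04), the last with an adjusted p of 0.156. That value was -0.56 with an adjusted p of 0.025 without HFD + Aroclor + PCB 126 replicate 3, and -0.01 (-0.32 to 0.30) with the GC offset.

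Timp1, the inhibitor of matrix breakdown, was low throughout, at 0.344 to 2.02 CPM among controls, 0.698 to 1.33 CPM after Aroclor, 0.166 to 1.61 CPM after PCB 126 and 0.213 to 1.35 CPM after both. In HFD + PCB 126, 4 of the 5 mice were at 0.387 CPM or below, and replicate 1 was at 1.61 CPM. The log2 fold changes, 0.10 (95% CI -1.08 to 1.27), -0.80 (-2.01 to 0.41) and -0.36 (-1.56 to 0.84), have intervals that reach past a 2-fold fall in every exposure and past a 2-fold rise in HFD + Aroclor, so that changes of that size were not detectable in these mice. In the combined exposure it was -0.19 (-1.40 to 1.01) with the GC offset. Timp1 overlaps Syn1 on the opposite strand, which had 397 counts over the 20 libraries.

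Adding PCB 126 to Aroclor, or Aroclor to PCB 126, changed none of the 10 genes by the edgeR test. Between the combined exposure and HFD + Aroclor, 0.412% of all genes (64 genes) passed. An unadjusted p under 0.05 was reached by 4 of the 10 genes, all lower in the combined exposure, and by 3639 of all genes. DESeq2 called 1 of the 10 and 1343 of all genes. Of the 4 genes, Col4a1 had the smallest adjusted p by edgeR, 0.088 (log2 fold change -0.52, 95% CI -0.86 to -0.19). Col4a1 was -0.17 there with the GC offset (adjusted p = 0.751), and the count of all genes was then 5. It was 0 without any of HFD + Aroclor replicates 3, 4 or 5 or of HFD + Aroclor + PCB 126 replicates 2, 4 or 5, 2 without HFD + Aroclor replicate 2, and 291 and 1036 without HFD + Aroclor + PCB 126 replicates 1 and 3. Between the combined exposure and HFD + PCB 126, 16.7% of all genes (2589 genes) passed, and 0 did with the GC offset. Without HFD + PCB 126 replicate 3 or 4 that count was 4 or 288, and without HFD + Aroclor + PCB 126 replicate 4 or 5 it was 954 or 269. Over the 10 fits without 1 mouse it was 4 to 3416. Of the 10 genes 3 passed without HFD + PCB 126 replicate 1, a fit whose own count of all genes is not given here. With all mice, an unadjusted p under 0.05 was reached by 5522 of all genes and by Lrat alone of the 10. Its log2 fold change was 0.62 (0.14 to 1.11), with an adjusted p of 0.069. DESeq2 called 1 of the 10 and 3697 of all genes. The Lrat value was 0.30 (adjusted p = 0.491) with the GC offset, under which none of the 10 had an unadjusted p under 0.05 in either of these comparisons. The departure of the combined exposure from the sum of the single exposures, tested as an interaction, was called by edgeR for 0 of the 10 genes and 0% of all genes. None of the 10 and 1846 of all genes had an unadjusted p under 0.05, and DESeq2 called 0 of the 10 and 1 gene. The interaction terms ranged from -0.42 (-1.65 to 0.80) for Col1a1 to 0.81 (-1.53 to 3.14) for Acta2, and both intervals reach past a 2-fold departure.

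How the genes varied together was examined over the 20 mice after each group's mean was subtracted from log2 CPM, with p-values from permutation of mice within groups. Of the 45 pairs, 34 had a positive r, the median was 0.22, and 4 pairs passed an adjusted p of 0.05. The fibrillar collagens formed 1 set. Col1a1 and Col1a2 had r = 0.91 and rho = 0.86, Col1a2 and Col3a1 r = 0.90 and rho = 0.78, and Col1a1 and Col3a1 r = 0.88 and rho = 0.85, each with a permutation p of 1e-05 for r, the smallest that 100000 permutations give, and an adjusted p of 0.00015. For rho the adjusted permutation p was 0.0020, 0.0030 and 0.0018. Without the 2 mice farthest from the median of the first gene, r was 0.87, 0.83 and 0.84. Lrat and Tgfb1 had r = 0.70 (permutation p = 0.0023, adjusted p = 0.025) and rho = 0.61 (permutation p = 0.0081, adjusted p = 0.080), and r = 0.55 without the 2 farthest mice. For Acta2 and Des r was 0.69 (permutation p = 0.012, adjusted p = 0.105), and it was 0.30 without the 2 farthest mice, HFD control replicate 5 and HFD + Aroclor replicate 4, so that it rested on them. That pair passed the threshold with the GC offset, at r = 0.76 (permutation p = 0.0017, adjusted p = 0.019). Lrat was not linked to the fibrillar collagens beyond the threshold, with r = 0.56 (permutation p = 0.039, adjusted p = 0.219) for Col3a1.

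**Figure D4:**
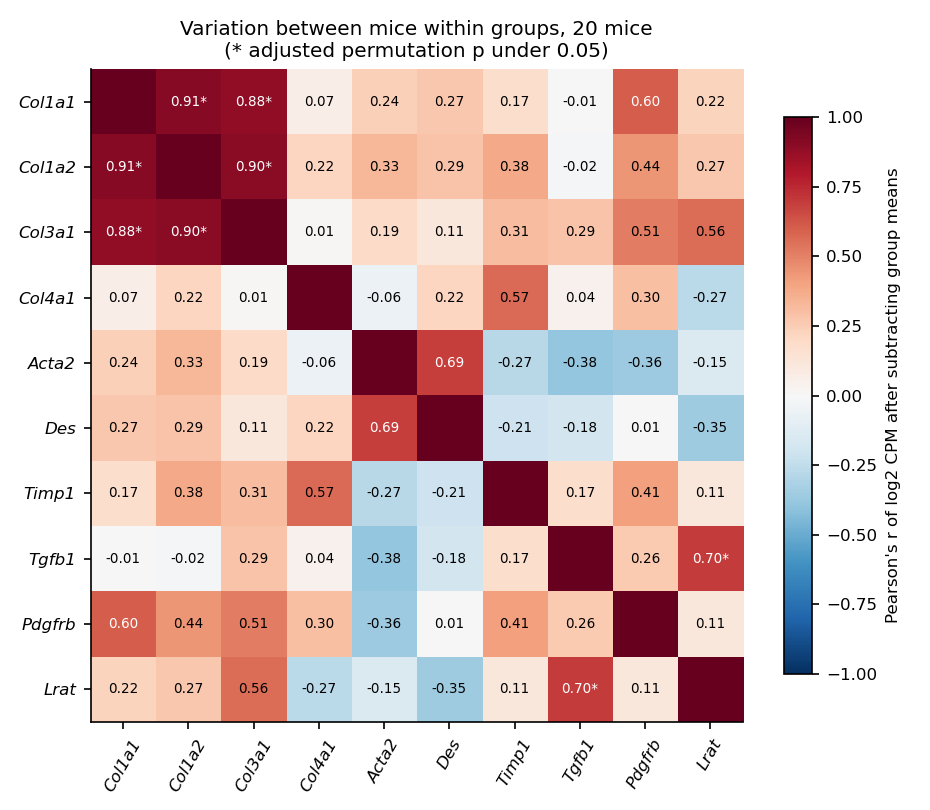
Pearson's r between the 10 genes over 20 mice, for log2 CPM after subtraction of the group means, with a star where the adjusted permutation p was under 0.05. The block of Col1a1, Col1a2 and Col3a1 (0.88 to 0.91) and the pair of Tgfb1 and Lrat (0.70) carry the 4 stars.

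Outside the 10, the genes most like each were taken from the 11342 genes of at least 1 CPM, by the same r over the same 20 mice. Col1a1 was most like Mmp2 (r = 0.92), a gelatinase, with Adamts2, the procollagen N-proteinase, at 0.89, and Col1a2 was like Col5a2 (r = 0.91), another fibrillar collagen chain. Beside collagen I, Col3a1 was most like Ccnb2 (r = 0.86), a mitotic cyclin. Lrat was most like Cpped1 (r = 0.93), Pm20d1 (r = 0.92) and Dcn (r = 0.91), of which Dcn encodes decorin, a proteoglycan of stellate cells and fibroblasts. Tgfb1 was most like Plac8 (r = 0.92), Ptgs1 (r = 0.91), the cyclooxygenase 1 gene, and Oit3 (r = 0.88), a gene of sinusoidal endothelium.

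For the others the leading genes were more mixed. Timp1 was most like Zfp54 (r = 0.88), Maged2 (r = 0.85) and Sparc (r = 0.84), a matrix glycoprotein. Col4a1 was most like Zfp820 (r = 0.81), Igf2bp2 (r = 0.76) and Mmp14 (r = 0.76), the membrane-bound collagenase. Pdgfrb was most like Nab2 (r = 0.86), Pck2 (r = 0.85) and Arhgap27 (r = 0.84). After the GC offset the values for Pdgfrb were 0.69 to 0.74, those of Col4a1 0.62 to 0.80, those of Timp1 0.75 to 0.84 and those of Tgfb1 0.64 to 0.83 (Plac8 0.64), while those of Acta2 were 0.94 to 0.98 and those of Lrat 0.89 to 0.92.

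The wider pathway was read from 10 lists of related genes, all of whose members were tested. In HFD + Aroclor none of their genes passed the threshold, with or without the GC offset. In HFD + PCB 126 P4ha1 fell and Tgfbr2 rose in both fits, and Cnn2, Cd9 and Ccl2 passed as lower with the GC offset only, Ccl2 at -2.17 (adjusted p = 0.029). In HFD + Aroclor + PCB 126, 5 of 12 basement membrane genes fell and none rose, with a list median log2 fold change of -0.14, where 17% of all genes fell and 32.8% passed in either direction. The 5 were Col4a2 (-0.83 ± 0.16, SE, adjusted p = 0.0013), Hspg2, the perlecan gene (-1.02 ± 0.19, adjusted p = 0.0011), Col18a1, Lama5 and Lamb2. None of the 12 passed with the GC offset, Col4a2 was at -0.16 and Hspg2 at -0.27, and the list median was 0.00.

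Of 15 genes for crosslinking and collagen maturation, 5 fell and none rose, against 17% of all genes lower, and the list median was -0.40, or -0.06 with the GC offset. P4ha1, the catalytic subunit of collagen prolyl 4-hydroxylase, was the 1 gene of the list that passed with the offset too (-1.07 without and -1.30 with it, adjusted p = 0.0062 and 0.0073). P4ha1 was at 10.2, 12.5, 28.6, 40.4 and 28.5 CPM in the controls, at 7.35 to 9.54 CPM after PCB 126 and at 9.90 to 13.8 CPM in the combined exposure. In the combined exposure the size of the difference was therefore carried largely by 3 of the 5 control mice. P4ha1 passed there in all 10 fits without 1 mouse. In HFD + PCB 126 its log2 fold change was -1.49 ± 0.28 (SE, adjusted p = 0.034).

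In the TGF-β list 6 of 22 genes rose and 1 fell in the combined exposure, with a median of 0.27, or 0.29 with the GC offset. These 7 of 22 are close to the 32.8% of all genes that passed. Tgfbr2, the type II receptor, was at 30.8, 33.6, 34.2, 27.9 and 26.9 CPM in the controls, against 51.4, 51.0, 51.4, 51.6 and 52.9 CPM in the combined exposure. It did not overlap between these groups, as was the case for 18.8% of all genes. Its log2 fold change was 0.75 ± 0.11 (SE, adjusted p = 0.00050), and 0.79 (adjusted p = 0.0012) with the GC offset. It also rose in HFD + PCB 126 (0.58 ± 0.11, adjusted p = 0.041), and its value in HFD + Aroclor was 0.47 (adjusted p = 0.184). The other risers, Tgfbr1, Smurf2, Smad2, Itgav and Skil, encode a receptor, 3 intracellular components of the pathway and an integrin chain, and Ltbp4, a latent TGF-β binding protein, fell. Tgfbr2 alone of the 22 passed with the GC offset. Without HFD control replicate 1 or 2, or HFD + Aroclor + PCB 126 replicate 2 or 5, 4 genes of the list passed in place of 7, while Tgfbr2 passed in all 10 fits without 1 mouse.

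The counts of the next lists stand beside 15.8% of all genes that rose in the combined exposure and 17% that fell. Markers of stellate cells other than the 10 moved both ways, with 4 of 16 higher, among them the growth factor Hgf (0.88 ± 0.30, adjusted p = 0.027), and 3 lower, among them the neurotrophin receptor Ngfr (-0.82 ± 0.22, adjusted p = 0.0072). Of 12 contractile and cytoskeletal genes 3 fell, among them Smtn (-0.86) and Tpm2 (-0.65), and the list median was -0.57. With the GC offset Smtn was at -0.16, Tpm2 at -0.17 and the median at -0.16. Among 18 other matrix proteins and proteoglycans 4 rose, led by the proteoglycan Lum (1.06 ± 0.25, adjusted p = 0.0041) and Postn (0.68), and Ecm1 fell. Of 10 other collagens Col8a1 rose (1.30, at a mean of 0.540 CPM) and Col5a3 (-1.15) and Col16a1 fell. None of the genes of these 4 lists passed with the GC offset, except Mylk, which was higher then and not without it. Leaving out 1 mouse took the stellate cell list from 7 genes to as few as 2 (without HFD + Aroclor + PCB 126 replicate 2), and to 3 or 4 without replicates 4 or 5 of that group or HFD control replicates 1, 2 or 4. The matrix list fell from 5 to 3 without HFD control replicate 5 or HFD + Aroclor + PCB 126 replicate 4. Of the genes named, Lum, Ngfr and Col5a3 passed in all 10 such fits, Smtn in 9, Col8a1 in 7, Hgf in 5, Tpm2 in 4 and Postn in 3.

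The same shares of all genes, 15.8% higher and 17% lower, apply to the lists that follow. Of the 5 PDGF ligands and receptors Pdgfra rose (0.43) and Pdgfa fell (-0.74), neither past the threshold with the GC offset. Pdgfra was 0.27 (adjusted p = 0.073) without HFD + Aroclor + PCB 126 replicate 4. None of 12 matrix proteases and inhibitors passed by the edgeR test. Of 13 inflammatory signals to stellate cells, 2 rose and 2 fell. The rises were Tlr4 and Ccr2, neither past the threshold with the GC offset. The falls were Ccl2, a monocyte chemokine (-1.14 without and -1.44 with the GC offset, adjusted p = 0.043 and 0.033), and Cd9 (-0.56 and -0.72, adjusted p = 0.0085 and 0.0051). The call of Ccl2 was lost in 5 of the 10 fits without 1 mouse, with adjusted p up to 0.155 (without HFD control replicate 4).

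**Figure D5:**
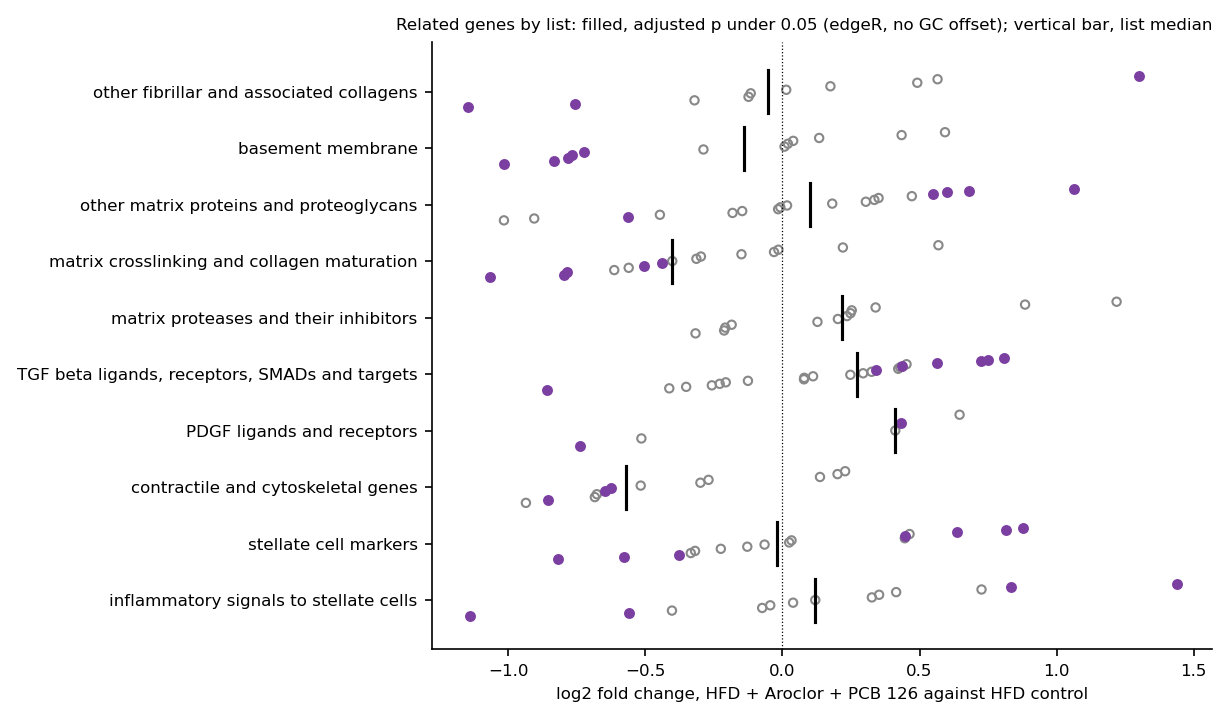
Log2 fold change in HFD + Aroclor + PCB 126 against HFD control for each gene of 10 related lists, without the GC offset, with filled points for an adjusted p under 0.05 (edgeR) and a vertical bar for the list median. Basement membrane and crosslinking genes passed the threshold only on the lower side (5 of 12 and 5 of 15), and 6 of 22 genes of the TGF-β list passed on the higher side. Of all genes, 15.8% passed on the higher side and 17% on the lower.

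Markers of other liver cells were measured beside these results. Summed levels of 7 sinusoidal endothelial markers were 112 to 247 CPM in HFD control and 166 to 210 CPM in HFD + Aroclor + PCB 126, and those of 7 Kupffer cell markers 138 to 296 and 156 to 213 CPM. The 5 markers of portal fibroblasts, cells that also make collagen, summed to 5.83 to 7.45 CPM in HFD control and 3.53 to 5.32 CPM in the combined exposure. These sums did not overlap, as was the case for 18.8% of all single genes. Entpd2, the 1 of the 5 that fell, was the largest part of the sum, with a mean of 3.55 CPM over the 20 libraries. Thy1 was next, at 1.40 CPM. Markers of cholangiocytes (5 markers, 4.16 to 8.60 and 3.38 to 8.33 CPM), mesothelial cells (4 markers, 1.22 to 8.39 and 3.13 to 5.59 CPM), lymphocytes (5 markers, 7.90 to 15.5 and 14.5 to 19.6 CPM) and adipocytes (4 markers, 48.0 to 248 and 56.4 to 91.5 CPM) were present in every group, and no marker of any list was at 0 throughout a group. Single genes made most of the lymphocyte and adipocyte sums, Ptprc (mean 10.9 CPM over the 20 libraries) and Cfd (94.9 CPM). In the combined exposure, where 32.8% of all genes passed, 3 of 6 hepatocyte markers fell (Apoa1, Ttr and Serpina1c), as did Stab2 of the endothelial list, while Adgre1 of the Kupffer cell list, Gpm6a of the mesothelial list and Ptprc of the lymphocyte list rose, and no marker of cholangiocytes or adipocytes passed. All 4 skeletal muscle markers fell, and 0 of 4 did so without HFD control replicate 4. Of the markers of the liver cell types only Ttr and Stab2 passed with the GC offset, and the median of the portal fibroblast list went from -0.35 to 0.25. The part of these cells in the values of the 10 genes was not tested.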

How the data were processed

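RNA-seq was made from snap-frozen liver of 20 mice with a stranded mRNA kit. The authors deposited 1 table of raw counts, whole numbers of reads per gene with no normalization, and the submitters' processing notes name FastQC 0.10.1, STAR 2.6, HTSeq 0.10.0 and the build GRCm38.p6. The annotation release and the strand setting used for counting are not given in the sources used here. Symbols, exon lengths and GC content came from GENCODE M21, and promoters from RefSeq.

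Groups follow the sample titles, also for HFD + PCB 126 replicate 2, whose library name carries another number. The closest pair of mice within a group differed by a chi-square of 21.0 per degree of freedom over 40 pairs, so that no library was counted as a duplicate. Genes with at least 10 counts in total (15522) were fitted with edgeR 4.0.16 in R 4.3.3 (TMM, quasi-likelihood test, 4 group coefficients, 16 residual degrees of freedom, two-sided), and p-values were adjusted over all genes by the Benjamini-Hochberg method. Each 95% confidence interval is of the log2 fold change. The GC offset is a spline with 6 degrees of freedom. DESeq2 1.42.0 and the other settings of the closing section were alternatives. Correlations used log2 CPM with a prior count of 1 and 100000 permutations of mice within groups, and their adjusted p-values are over 45 pairs. Simulated counts carried no GC trend, and 200 genes of at least 1 CPM were changed by 1 on the log2 scale. Of these, 78.5% were recovered in the combined comparison, with 5.99% false calls. These rates do not cover the GC difference between the real groups.

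The 10 genes and the lists were chosen with earlier results of these data known. All 10 are given. From each list, up to 3 genes with the largest change that passed with and without the GC offset (mean of at least 1 CPM) are named with values or, where there was none, up to 2 that passed without it. The 3 genes most like each of the 10 are named too. Other list genes named, such as Ltbp4, Mylk and Entpd2, were picked after their values were seen.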

Additional observations from a re-analysis of the deposited data

Results flagged for a closer look

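In groups of 5 mice, a mouse was singled out where its gap to the nearest other mouse was more than 0.71 of the group's range. This held for 11 of 104 groups tested, of which 8 were among the 40 groups of the 10 stellate cell and fibrosis genes, and chance flags about 1 in 20 groups.

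Acta2 had such a mouse in every exposure group, at 35.86 CPM in HFD control replicate 5, 28.95 CPM in HFD + Aroclor replicate 4, 10.91 CPM in HFD + PCB 126 replicate 5 and 17.8 CPM in HFD + Aroclor + PCB 126 replicate 5. Des stood out at 7.265 CPM in HFD + Aroclor replicate 4, where the other 4 mice were at 2.83 to 3.56 CPM. HFD + PCB 126 replicate 1 stood above its group in Col1a2 at 25.88 CPM (others 9.80 to 13.5), in Col3a1 at 56.77 CPM (others 18.5 to 24.3) and in Timp1 at 1.61 CPM (others 0.166 to 0.387).

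Among related genes, Hspg2 was low at 7.223 CPM in HFD control replicate 5 (others 9.47 to 9.99). Pdgfa was high at 7.498 CPM in HFD control replicate 1 (others 4.96 to 5.53). Pdgfra was high at 10.69 CPM in HFD + Aroclor + PCB 126 replicate 4 (others 7.45 to 8.29).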

How the results depend on the processing

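GC content limits the combined comparison most. Of the 10 genes 3 changed against HFD control, and 0 did with the GC offset and 0 with the replicate block and the GC offset together. With each library's GC slope as a covariate 0 changed (Lrat 0.71, Des -1.45 and Col4a1 -0.61). The slopes of the combined and control groups do not overlap. Neither this covariate nor the trend taken by the GC offset can therefore be told apart from the exposure. The loss of calls with the covariate or with the offset decides nothing. Without HFD control replicates 4 and 5, a setting chosen after seeing the data and run only for the counts against HFD control and for single genes in the combined comparison, 2 of the 10 changed, Col4a1 and Tgfb1 (-0.54, adjusted p = 0.033). With all mice 32.8% of all genes passed in the combined comparison, and the share without these replicates is not given here. Timp1 had 4 to 54 counts per library and a within-group coefficient of variation of 67.9%, and the part of depth in its wide interval was not tested. The FPKM filter left Des, Tgfb1 and Timp1 out. The cause of the changes below was not tested.

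The labels do not say that replicate numbers pair mice across groups, and same-numbered mice did not all deviate together, so the numbers were not taken as a pairing. Deviations of same-numbered mice correlated at -0.266 to 0.759 (mean 0.101, against -0.020 for other pairs), and 10 of 20 mice correlated best with a mouse of their own number, which 3 of the 15 mice of the other groups carry, a hint from the data and not from the design. With the replicate block 4 of the 10 genes changed in the combined comparison (Tgfb1 at -0.39, adjusted p = 0.044, in addition), and 1 of the 10 between the combined exposure and HFD + PCB 126. Without the block 32.8% and 16.7% of all genes passed in these comparisons, and the shares with it are not given here. Acta2 in HFD + Aroclor was 0.15 with the block, and 0.12 with the GC offset as well. Genes changed with the block were 26 in HFD + Aroclor, 101 in HFD + PCB 126, 475 between the combined exposure and HFD + Aroclor, and 38 for the interaction. With the block and the GC offset they were 20 in HFD + Aroclor, 123 in HFD + PCB 126, 1452 in the combined exposure, 198 between it and HFD + PCB 126, and 38 for the interaction.

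DESeq2 called 135 genes in HFD + Aroclor, 320 in HFD + PCB 126 (1 of the 10), 1343 between the combined exposure and HFD + Aroclor (1 of the 10), 3697 between it and HFD + PCB 126 (1 of the 10), and 1 gene for the interaction. With the GC offset there were 50 genes in HFD + PCB 126, 1410 in the combined exposure, 5 between it and HFD + Aroclor and 0 between it and HFD + PCB 126, and with the GC slope 484 in HFD + Aroclor, 759 in HFD + PCB 126, 523 in the combined exposure, and 2 and 0 between it and each single exposure. The FPKM filter gave 47 genes in HFD + PCB 126, 636 between the combined exposure and HFD + Aroclor, and 1 of the 10 between the combined exposure and HFD + PCB 126. Without that filter 16.7% of all genes passed in the last of these comparisons. Between the combined exposure and HFD + Aroclor, RLE size factors gave 107 genes, no filter 13 and a fit of only those groups 0. A fit of only the groups compared gave 4 genes in HFD + PCB 126, and leaving out both control mice gave 8.

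Directions turned as follows. After the GC offset, Col4a1 was 0.041 in HFD + Aroclor, and Col1a1 0.55 and Tgfb1 0.046 in the combined exposure, and with the block as well these were 0.057, 0.57 and 0.060. With the GC slope, Timp1 was -0.22 in HFD + Aroclor, Col1a1 0.069 and Pdgfrb 0.013 in HFD + PCB 126, Acta2 -0.23 in the interaction, and Col1a1 1.02, Pdgfrb 0.47, Postn -0.11, Tpm2 0.069 and Hgf -0.090 in the combined exposure. Col1a1 was 0.00055 there with the FPKM filter, and Acta2 0.75 without both control mice.

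Leaving out 1 mouse moved Acta2 from -1.59 to 0.58 in the combined exposure, -1.47 to 1.06 in HFD + Aroclor, -1.98 to 0.012 in HFD + PCB 126 and -0.49 to 1.99 in the interaction. Col1a1 ran from -0.50 to 0.34 in the combined exposure and -0.61 to 0.059 in HFD + PCB 126, Timp1 from -0.71 to 0.054 in the combined exposure and -0.11 to 0.51 in HFD + Aroclor, and Lrat from -0.028 to 0.34 in HFD + PCB 126. In HFD + Aroclor, Col4a1 ran from -0.18 to 0.027, Pdgfrb from -0.047 to 0.23 and Tgfb1 from -0.093 to 0.13. Genes changed were 0 to 2 in HFD + Aroclor, 4 to 127 in HFD + PCB 126, 0 to 1036 between the combined exposure and HFD + Aroclor (0 to 1 of the 10) and 4 to 3416 between it and HFD + PCB 126 (0 to 3 of the 10).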
